A study of Arabidopsis thaliana with 4 samples.

Results

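AT1G14930, AT1G14940, AT1G14950 and AT1G14960 are 4 neighbouring Arabidopsis thaliana genes on chromosome 1 that encode major latex protein-like (MLP) proteins. The cluster was chosen by the intensities of AT1G14930, which differed widely between genotypes on these arrays. The other members were taken by position, as the loci that follow it without a break in the RefSeq gene order. Each of the 4 had 1 probe set of its own, out of 13286 genes with a named probe set and 22746 probe sets in all. The probe sets were 262857_at, 262858_at, 262828_at and 262838_at, in that gene order. The difference of AT1G14930 is therefore given as a description with no test, and the question put to the data was whether its neighbours differed too.

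The samples were dark-grown seedlings of the Columbia wild type and of a phyA phyB double mutant in the same ecotype, with alleles phyA-211 and phyB-9, which lacks the main far-red and red light receptors. Transcript levels were measured on Affymetrix ATH1 arrays, which carry sets of short oligonucleotide probes, with 2 arrays per genotype. In both groups, chilling on 0.8% agar (5 days, 6 °C) was followed by 1 h under white light and by 3 days of darkness, both at 22 °C. Whole seedlings were extracted, so more cells of a type and more RNA per cell cannot be told apart. No probe set was named PHYA or PHYB, so the genotype labels were not checked through the mutated genes. The labels do not state whether the arrays of a genotype were grown separately, and the spread behind each p-value may therefore be technical.

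MLP proteins are small proteins of the Bet v 1 fold, named after the birch pollen allergen, with a hydrophobic pocket that can bind lipids, hormones and other small ligands. They were first described in the latex of opium poppy, and the abscisic acid receptors of the PYR/PYL group share the fold. Many plant MLP genes lie in tandem arrays that arose by local duplication, and the role of most single members is not known. Phytochromes act in seeds as well as in seedlings, where the light they perceive promotes germination.

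Values are deposited intensities in arbitrary units. Differences are on the log2 scale after 70.1, the 10th percentile of all intensities, was added to each value, which understates the change of dim probe sets. Summed intensity over all probe sets ran from 76027250 to 77974921 between arrays, and the trimmed means of the arrays lay within 0.0946% of each other. Mutant array 1 stood apart. Its log2 values correlated with those of the wild-type arrays at 0.90 and 0.886 across tested probe sets, against 0.947 and 0.936 for mutant array 2. The mutant arrays correlated with each other at 0.917, and the wild-type arrays at 0.950. Mutant array 2 was thus closer to both wild-type arrays than to mutant array 1. Results are therefore given for each mutant array as well as for their mean.

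The levels of AT1G14930 and AT1G14950 were higher in both mutant samples than in both wild-type samples, those of AT1G14940 overlapped between genotypes, and the level of AT1G14960 was similar on 3 of the 4 arrays and lower on mutant array 1. The members with the large differences are not next to each other: AT1G14940 lies between them. Of the 2 neighbours that passed the intensity filter, AT1G14950 and AT1G14960, 0 passed an adjusted p of 0.05 in limma, where 0.0953% of all 13648 tested probe sets passed. At an unadjusted p under 0.05 in limma, AT1G14950 passed and AT1G14960 did not, and 7.24% of tested probe sets did.

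For AT1G14930, the intensity was 69.2 and 22.2 on the wild-type arrays and 8167 and 3534 on the mutant arrays. The genotypes did not overlap. On the log2 scale the wild-type mean was 6.83 ± 0.42 and the mutant mean 12.41 ± 0.84 (SD, n = 2 each), a difference of 5.59. Taken singly, mutant array 1 gave 6.18 and mutant array 2 gave 4.99. Both wild-type intensities lay below the added 70.1, so that number sets part of the size. The difference was 7.10 with nothing added and 3.96 with 323.9, the 25th percentile, added. Without detection calls, it was not tested whether the wild-type signal was above background. AT1G14930 was kept by the filter, the brightest 60% of probe sets by mean log2 intensity, only through its mutant values. By size of increase it ranked 1 of the 13648 tested probe sets, and 2 with the larger number added. The gene was chosen for this difference, so its rank restates that choice and is no result.

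AT1G14950, the third gene of the row, had intensities of 1526 and 929.1 on the wild-type arrays and 71259 and 7839 on the mutant arrays. Both mutant values were above both wild-type values, but mutant array 1 was 9.09 times mutant array 2. The lower mutant value was still 5.14 times the higher wild-type value. The same kind of separation, with the mutant higher, was seen for 20.0% of tested probe sets, and with an at least 2-fold difference for 1.99%. On the log2 scale the wild-type mean was 10.30 ± 0.48 and the mutant mean 14.54 ± 2.24 (SD, n = 2 each), a difference of 4.23 (SE 0.79, 95% interval 2.46 to 6.01).

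The difference of AT1G14950 did not pass in limma over all tested probe sets (adjusted p = 0.141 with Benjamini-Hochberg adjustment, unadjusted p = 4.17e-04). Mutant array 1 gave 5.82 and mutant array 2 gave 2.65. Leaving out either mutant array leaves no spread between mutant samples, so only these sizes are given for the single arrays. The size therefore ranged widely between the mutant samples while the direction was shared. By size of increase AT1G14950 ranked 5 of the 13648 tested probe sets. On mutant array 1 alone it ranked 3, and on mutant array 2 alone 10. It was first, ahead of AT1G14930, with the larger number added.

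AT1G14940, between these 2 genes, had intensities of 48.0 and 268 on the wild-type arrays and 1060 and 205.5 on the mutant arrays. Mutant array 1 was above both wild-type arrays and mutant array 2 lay between them, so the genotypes overlapped. The log2 difference was 2.50 on mutant array 1, 0.46 on mutant array 2 and 1.48 in the mean. The probe set was dimmer than the filter allowed. In the limma fit without the filter, which passed 0.0132% of probe sets, its adjusted p was 0.849 and the 95% interval ran from -0.65 to 3.61. These data leave both no difference and a large increase within the interval.

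AT1G14960, the last gene of the row, had intensities of 3214 and 2936 on the wild-type arrays and 1862 and 3345 on the mutant arrays. The wild-type values were close together, mutant array 1 was below them and mutant array 2 above them. The log2 difference was -0.29 (SE 0.31, 95% interval -0.99 to 0.41; limma adjusted p = 0.847). Mutant array 1 gave -0.70 and mutant array 2 gave 0.12. The interval excludes an increase of the size measured for AT1G14930 or AT1G14950.

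**Figure D1:**
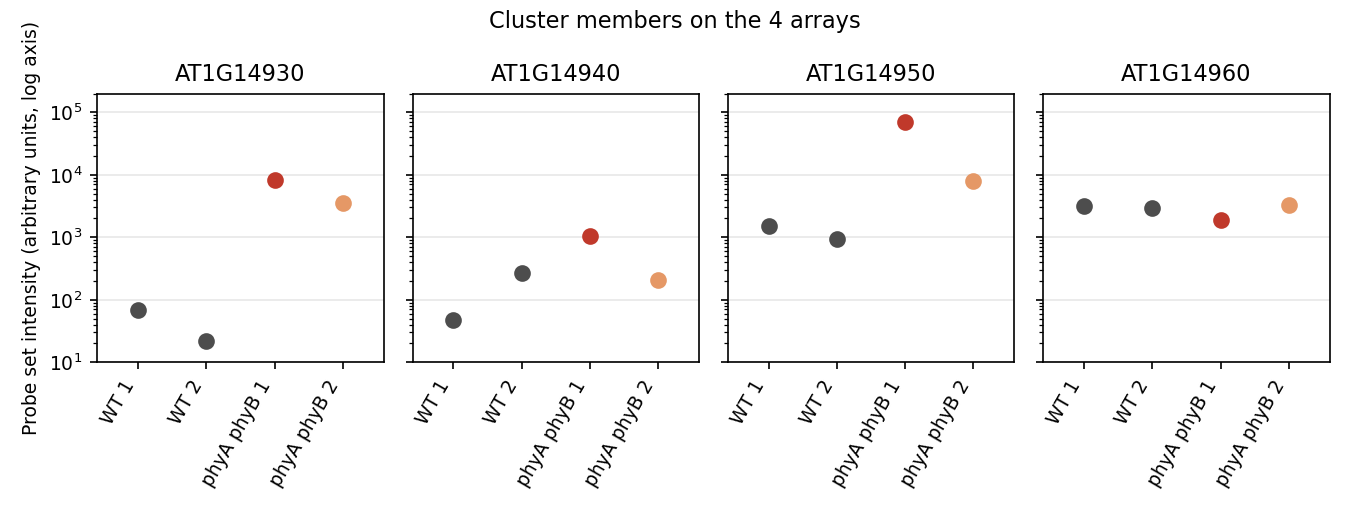
Intensity of the 4 cluster members on each array, in arbitrary units on a log axis, 1 point per array (WT, wild type). AT1G14930 and AT1G14950 lie higher on both mutant arrays, AT1G14940 on mutant array 1 alone, and AT1G14960 stays between 1862 and 3345. Points of different genes come from different probes and their heights are not to be compared.

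The members also differed in how the mutant arrays related to each other. Mutant array 1 over mutant array 2 was 2.31 for AT1G14930, 5.16 for AT1G14940, 9.09 for AT1G14950 and 0.557 for AT1G14960 on the linear scale. Wild-type array 1 over wild-type array 2 was 3.12, 0.179, 1.64 and 1.09 in the same order. The dim AT1G14940 thus also varied widely between the wild-type arrays. The signals of the cluster thus did not keep 1 ratio from array to array. On the log2 scale, only 7 of the 13648 tested probe sets had a larger excess of mutant array 1 over mutant array 2 than AT1G14950, against 360 for AT1G14930. All 4 probe sets carry the plain _at ending that the array maker gives to sets without noted shared probes, and no probe set annotated to several genes named a member (0 found). Cross-hybridisation between the copies was not tested.

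Loci on either side of the cluster were compared next. The nearest 4 named and tested loci on each side were AT1G14820, NUP155 (a nuclear pore protein gene), AT1G14890 and AT1G14910 before it, and AT1G14990, scpl50 (a serine carboxypeptidase-like gene), AT1G15010 and GAT1_2.1 after it. Their differences ran from -0.57 for AT1G14890 to 0.93 for AT1G14990, with a median of 0.00, beside 0.00 over all tested probe sets. Of these 8 loci, 4 had higher and 4 lower means in the mutant, and 0 passed an adjusted p of 0.05 in limma, where 0.0953% of tested probe sets passed. NUP155, at 0.81, was the 1 locus of the 8 with an unadjusted p under 0.05 in limma (0.00724), beside 7.24% of tested probe sets. The genotypes did not overlap for 4 of the 8, of which 2, NUP155 and AT1G14990, were higher in the mutant, beside 20.0% of tested probe sets, and 2, AT1G14890 and GAT1_2.1, were lower, beside 18.3%.

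AT1G14970, directly after the cluster, was below the filter. Its wild-type intensities were 111.9 and 44.7 and its mutant intensities 152.9 and 203.8, a difference of 0.77 (limma without the filter, adjusted p = 0.87). Both dim mutant values were above both wild-type values, a separation seen for 20.0% of tested probe sets. GAI, the DELLA repressor gene of gibberellin signalling directly before AT1G14930, had no named probe set and was not analysed here. The stretch from the first to the last flanking locus holds 24 protein-coding loci, cluster included, and not all of them are given here. None of the 9 loci given around the cluster (0 of 9) had a mean difference above 1. Fewer than 371 of the 13648 tested probe sets had one, since AT1G14990, at 0.93, ranked 371 by size of increase. The 0 of 9 therefore does not set these loci apart from other loci. Of the 3 members taken by position, AT1G14950 had a mean difference above 1, as did the dim AT1G14940, whose values overlapped between genotypes.

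**Figure D2:**
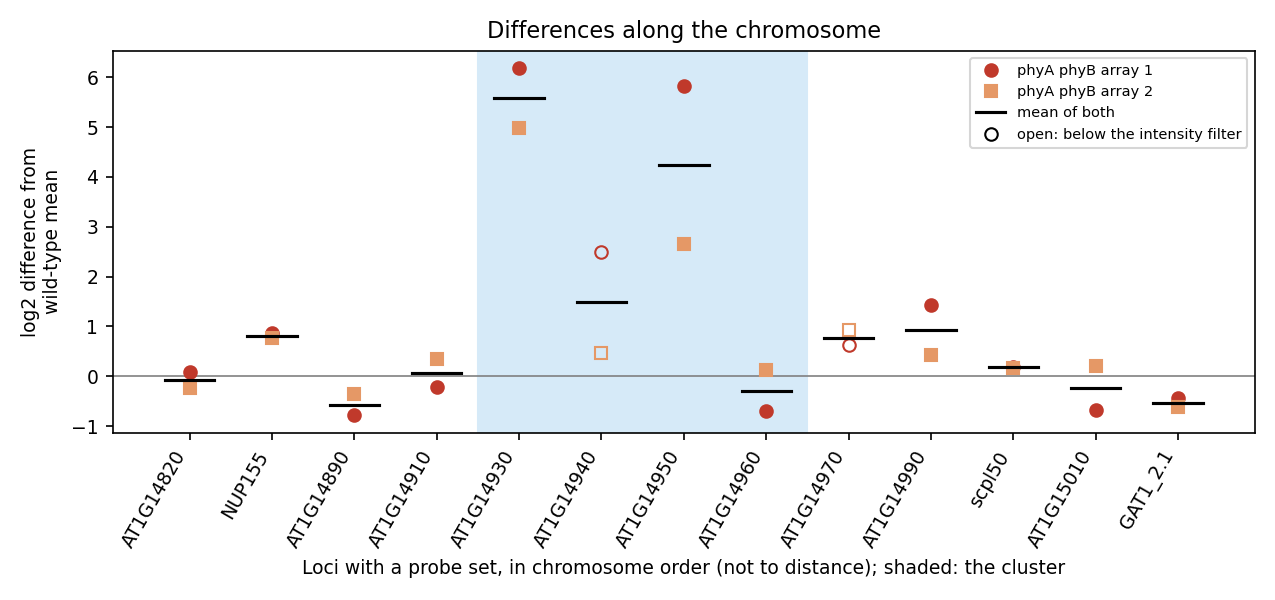
Log2 difference of each mutant array from the wild-type mean for loci with a probe set, in chromosome order and not to distance. Circles are mutant array 1, squares mutant array 2, bars their mean, open symbols probe sets below the filter, and shading the cluster. AT1G14930 and AT1G14950 stand at means of 5.59 and 4.23, while the means of the loci outside the cluster lie between -0.57 and 0.93.

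The rest of the MLP family was read from a list of 22 further genes, of which 11 had a named probe set and 6 passed the filter. None of these 6 passed in limma, either adjusted (0.706 or more) or at an unadjusted p under 0.05 (0 of 6). Of all tested probe sets, 0.0953% and 7.24% passed, so 0 of 6 does not set these relatives apart. All 6 had a lower mean in the mutant, as did 49.6% of tested probe sets, with a median of -0.33 and differences that did not reach 2-fold. The genotypes did not overlap for 3 of them, AT1G23120, AT4G23670 and AT4G23680, each lower in the mutant, as for 18.3% of tested probe sets.

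AT3G26450 had the lowest value, -0.61, with wild-type intensities of 4534 and 6375 against 2693 and 4571 in the mutant. AT4G23670 was at -0.36, with 48671 and 56967 in the wild type against 35985 and 46624 in the mutant. AT1G23120 was at -0.44, AT1G70880 at -0.31, AT4G23680 at -0.26 and AT5G28010 at -0.07. AT1G14960 thus had a value within the range of these relatives, and AT1G14950 had a value above it. AT1G14930 was chosen for its difference, so its place above that range is no result of the comparison. The median of the 6 was -0.44 for mutant array 1 alone and -0.23 for mutant array 2 alone. The 5 relatives below the filter had intensities between 14.4 and 983.3, and each overlapped between the genotypes. Of 14 PYR/PYL abscisic acid receptor genes, 0 had a named probe set.

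Elsewhere in the family, 4 further pairs of direct neighbours had a probe set each. The members of a pair differed from each other in their log2 differences by 0.01 for AT1G23120 and AT1G23130, 0.10 for AT4G23670 and AT4G23680, 0.11 for AT3G26450 and AT3G26460 and 0.72 for AT1G70870 and AT1G70880. In 3 of these pairs 1 member was below the filter, and the gap between means did not hold on the single arrays. AT1G23120 was at -0.60 on mutant array 1 and -0.28 on mutant array 2, against 0.37 and -1.27 for AT1G23130. AT3G26450 was at -0.98 and -0.23, against 0.71 and -1.70 for AT3G26460. AT1G70870 was at -0.47 and 1.30, against -0.29 and -0.32 for AT1G70880. In the cluster, the steps from gene to gene were 4.10, 2.75 and 4.52. The first of these steps contains the difference by which the cluster was chosen, and the first and second rest on AT1G14940, below the filter, so the steps are given as values and not compared with the other pairs.

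**Figure D3:**
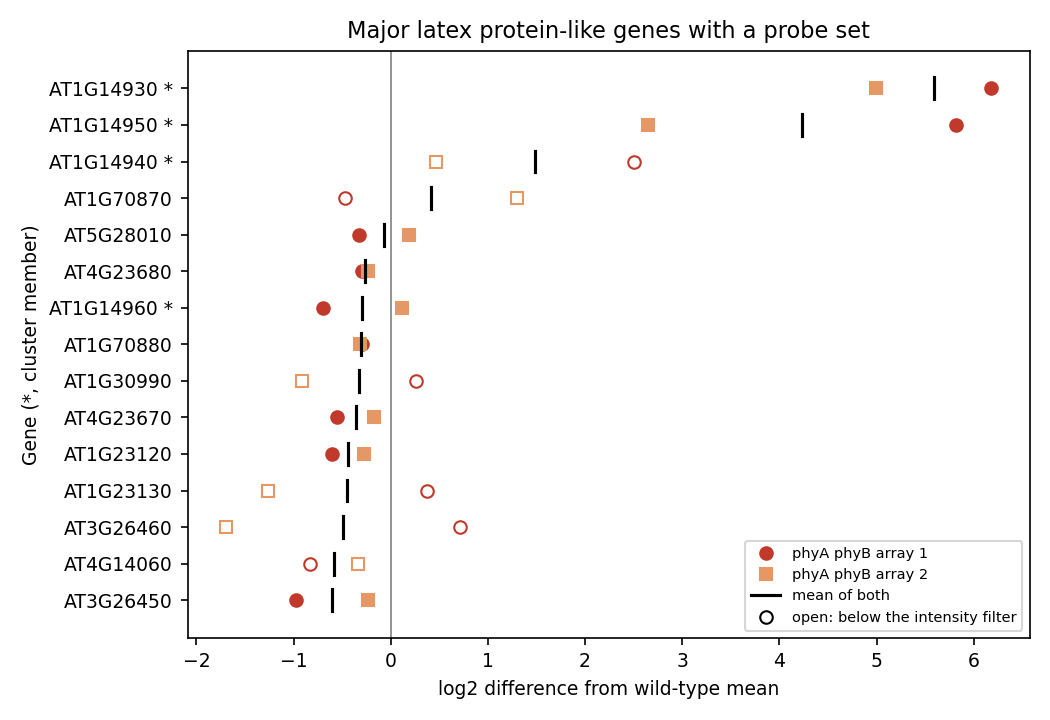
Log2 difference from the wild-type mean for the 15 MLP genes with a named probe set, ordered by their mean (bars), with circles for mutant array 1, squares for mutant array 2 and open symbols below the filter. AT1G14930, AT1G14950 and AT1G14940 take the 3 highest means, at 5.59, 4.23 and 1.48, and AT1G14960 lies among the relatives. The place of AT1G14930 follows from its choice by this difference.

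The genes whose pattern was most like that of AT1G14930 were found among 7243 named and tested genes outside the cluster, by the Euclidean distance of log2 values, each centred on its wild-type mean, over the 4 arrays. The nearest was AGL67, a MADS-box transcription factor gene, at a distance of 2.20. It was followed by the LEA protein gene M17 (2.70), the plant defensin gene PDF2.1 (2.77), the cupin gene AT2G28490 (3.30) and AT3G56350, of the superoxide dismutase family (3.35). AT1G14950 was at a distance of 2.37. M17 and AT2G28490 are also among the seed markers described below, so both descriptions share their values. The profiles were not scaled to equal size, so the genes nearest to one with so large an increase are others with large increases, and the distances restate those sizes. AGL67 had wild-type intensities of 112.6 and 328 against 9875 and 2858 in the mutant. PDF2.1 had wild-type values of 384.3 and 28.6 against 17258 and 1100 in the mutant.

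Most of the measured seed marker transcripts had higher levels on the same arrays as AT1G14930 and AT1G14950. Of 24 marker genes of seed storage, oil body and LEA proteins, which accumulate in maturing embryos, 9 had a named probe set, and 8 of the 9 were higher in both mutant samples than in both wild-type samples, without overlap, as were 20.0% of tested probe sets. The marker that overlapped was the oil body gene OLEO3, with a log2 difference of 0.23 in the mean and -0.10 on mutant array 2. Summed intensity of the 9 markers was 32675 and 32249 on the wild-type arrays, 358602 on mutant array 1 and 117978 on mutant array 2. That is 11.0 and 3.63 times the wild-type mean on the mutant arrays, beside 58.1 and 6.39 times for AT1G14950. No such ratio is given for AT1G14930, whose wild-type signal was not tested against background. The markers were measured at levels above 0 on every array, and 2 of the 9, M17 and PAP85, passed an adjusted p of 0.05 in limma, as did 0.0953% of tested probe sets. These lists were chosen with earlier results of these arrays known. Their part in the difference of the cluster was not tested.

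Like AT1G14930, AT1G14940 and AT1G14950, 8 of the 9 markers had more signal on mutant array 1 than mutant array 2 had. Mutant array 1 was also the array that stood apart across tested probe sets. The share of all tested probe sets with such an excess was not counted. Whether its direction was particular to these genes was therefore not tested. The ratio between the mutant arrays had a median of 2.63 over the markers and ran from 0.736 for AT1G03890 to 9.89 for M10, a LEA protein gene. The 2.31 of AT1G14930 lay near this median. The 9.09 of AT1G14950 was above the ratio of every marker but M10, the next highest being 4.26 for AT2G28490. On mutant array 2, M10 was 0.53 above its wild-type mean on the log2 scale, against 2.65 for AT1G14950. M10 had wild-type intensities of 1564 and 1944 against 25181 and 2547 in the mutant. AT1G14960, with a ratio of 0.557, lay below the range of the markers.

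**Figure D4:**
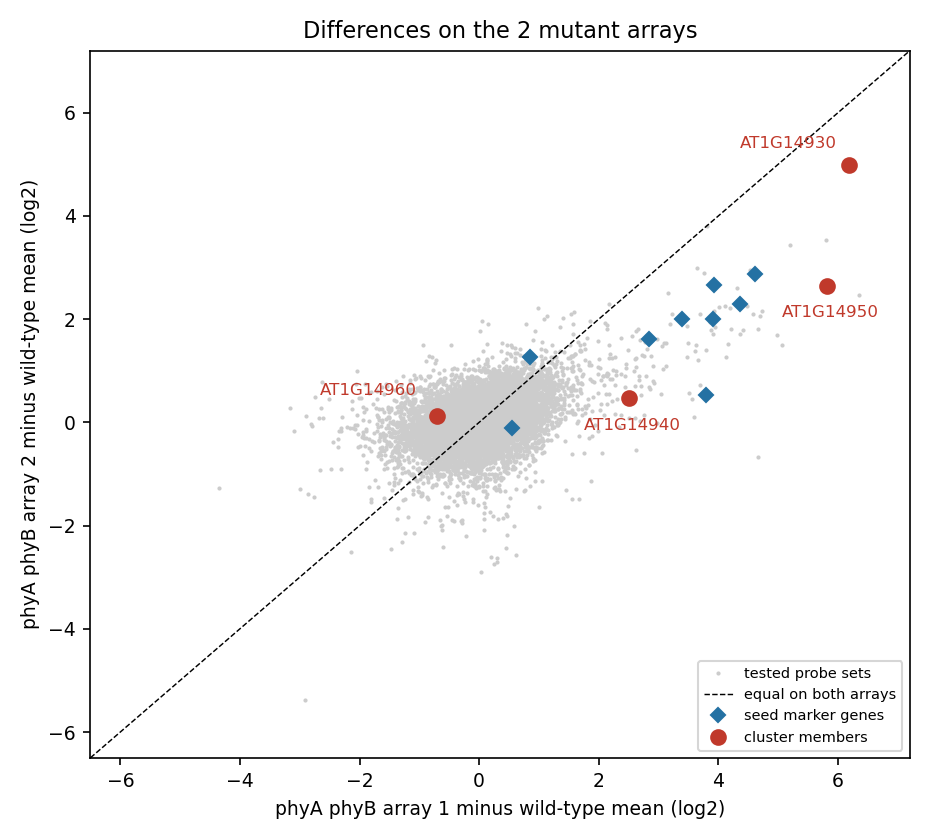
Log2 difference from the wild-type mean on mutant array 1 (horizontal) against mutant array 2 (vertical) for the 13648 tested probe sets (grey), the 9 seed marker genes (diamonds) and the 4 cluster members (circles). Both axes share the wild-type mean. AT1G14930 lies at 6.18 and 4.99, AT1G14950 at 5.82 and 2.65 and AT1G14940 at 2.50 and 0.46, each under the dashed line of equal values, and AT1G14960 above it at -0.70 and 0.12.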

How the data were processed

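The authors deposited linear intensities, 1 for each probe set, of 4 arrays labelled by the array maker's instructions per the labels' protocols. For these deposited intensities, software, scaling target and detection calls are not given in the sources used here. Scaling was kept as deposited, and no values were averaged between arrays before testing. Precision is limited by the number of arrays. An exact two-sided permutation of 2 arrays against 2 cannot give a p under 0.333, so single values were tested through limma (version 3.58.1, under R 4.3.3), with lmFit and trended eBayes, on log2(intensity + 70.1). The brightest 60% of probe sets were tested, and p-values were adjusted over all 13648 by the Benjamini-Hochberg method at 0.05. The fit had 9.2 degrees of freedom in total and was tested on simulated data.

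Gene names came from the platform annotation, matched to RefSeq TAIR10.1. A single gene was given for 13513 probe sets, of which 13436 were matched, several genes for 503, and none for 8730. RefSeq was used for names and gene order only, since no build was stated for the files. Members, lists and rules were chosen with earlier results of these data known. Named were all members, the 4 nearest tested loci on each side, the MLP relatives, the 5 genes most like AT1G14930 and the seed markers. A planned comparison of protein and promoter sequences was not run, because no sequences were used here. The label of wild-type array 1 carries no replicate number, and the number follows the order of deposit. Figures were drawn with matplotlib 3.10.9.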

Additional observations from a re-analysis of the deposited data

How the results depend on the processing

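The 13 probe sets past the threshold became 3 without a filter and 1 by eBayes without the trend, and were 31 at an adjusted p under 0.10 and 401 by 2-fold change without overlap, untested. Leaving out single arrays gave counts that ran from 6 to 422, and under the other alternatives it was 9 to 18. AT1G14930 differed by 7.10 with no pseudocount and 3.96 with the larger one, and by 4.99 to 6.18 with each array left out. It was not among the brightest 40%, so that alternative gave no value. AT1G14940 ran from 0.87 to 2.04 with all arrays and from 0.46 to 2.50 with each left out. AT1G14950 ran from 3.99 to 4.31 with all arrays (limma adjusted p from 0.0818 to 0.578, past the threshold in none of 10 alternatives). Its difference ran from 2.65 to 5.82 with each array left out. AT1G14960 ran from -0.35 to -0.26 with all arrays and from -0.70 to 0.12 with each left out, the positive value without mutant array 1. The cause of these changes was not tested. A filter by mean linear intensity was added after seeing the data and gave 13 calls. No paired analysis was possible because 1 of the wild-type arrays carries no replicate number. Without a signal over background, low intensities limit what AT1G14940 and the wild-type values of AT1G14930 show.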

Other observations

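The genes most like AT1G14950 were looked up by the same distance after its values had been seen. PDF2.1 was nearest at 1.22, then M17 (1.38), AT3G56350 (1.47), AT2G28490 (1.60) and AGL67 (1.62). These are the same 5 genes, in another order, as those nearest to AT1G14930. As for AT1G14930, the profiles were not scaled to equal size.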
